A study of Mus musculus with 10 samples.

Results

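Protein phosphatase 1 (PP1) and the proteins that inhibit or direct it were followed in mouse mammary tumours, with Ppp1r14c, which encodes the inhibitor KEPI, at the centre. The set was chosen by symbol and holds 9 genes: the 4 genes of the CPI-17 inhibitor family (Ppp1r14a, Ppp1r14b, Ppp1r14c and Ppp1r14d), the inhibitor genes Ppp1r1b and Ppp1r2, the myosin phosphatase targeting gene Ppp1r12a and the catalytic subunit genes Ppp1ca and Ppp1cb. Of these 9 genes, 7 have a row among the 18047 genes of the deposited table, and all 7 passed the filter on low values. Ppp1r14d and Ppp1r1b have no row and are not analysed here. The set was proposed with the knockout against wild-type values of these same libraries known, so the differences of its genes are given as a description, with no p-value.

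The tumours were grown for 3 weeks in BALB/c mice from 4T1, a mammary carcinoma line of that strain. In the KO group (5 libraries) the implanted 4T1 cells had a gene knocked out, and in the WT group (5 libraries) they were wild type. The labels name no genetic change in the host mice, and all 10 libraries carry the same batch label; whether the KO cells were 1 clone, and the age and sex of the mice, are not given in the sources used here. Total RNA of frozen tumour sections, depleted of ribosomal RNA, was sequenced to between 8609756 and 19934428 reads per library. The labels tie no library to a named animal, so SDs measure the spread between these libraries. SEs are those of the limma fit, which draws the spread of each gene toward a trend over all genes. KO5 and WT1 to WT4 carry the unexplained library prefix RESUB, and WT2 and WT5 share the library number 170. The labels do not say whether WT2 and WT5 come from 1 tumour, so n = 5 counts libraries. WT2, WT3 and WT5 hold RNA of keratinocytes (8 marker genes summing to 636, 5853 and 3507 normalized counts), against 32.3 to 49.2 in the KO libraries and 38.4 to 45.7 in WT1 and WT4. The listed carcinoma and epithelial markers were above 0 in all 10 libraries, except Krt5, which was at 0 in KO2 and KO5. The most abundant, Krt18, a keratin of simple epithelium, lay between 4125 and 8636 normalized counts.

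PP1 removes phosphate from serine and threonine. Its catalytic subunit has little specificity of its own and works bound to one of many regulatory proteins, which place it on a substrate or block it. In the myosin phosphatase, the targeting subunit encoded by Ppp1r12a (MYPT1) holds the catalytic subunit of Ppp1cb on myosin, where it opposes contraction. The proteins of the CPI-17 family become strong inhibitors of PP1 once protein kinase C or related kinases phosphorylate them. CPI-17 itself, encoded by Ppp1r14a, is best known from smooth muscle, where it sensitises the contractile apparatus to calcium.

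The stretches before the start of the 3 CPI-17 family genes with a row are shown because these relatives differed in level and in their pattern over the libraries. They are from RefSeq (GRCm38.p6), run 5′ to 3′ on the gene's strand, and end at the base before the earlier of the RefSeq and GENCODE starts. Capitals mark CpG dinucleotides.
Ppp1r14c (chr10:3365900-3366056, plus strand): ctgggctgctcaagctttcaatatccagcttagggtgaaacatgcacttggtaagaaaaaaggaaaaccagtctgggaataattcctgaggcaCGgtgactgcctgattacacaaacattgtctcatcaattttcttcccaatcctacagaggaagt
Ppp1r14b (chr19:6974798-6974967, plus strand): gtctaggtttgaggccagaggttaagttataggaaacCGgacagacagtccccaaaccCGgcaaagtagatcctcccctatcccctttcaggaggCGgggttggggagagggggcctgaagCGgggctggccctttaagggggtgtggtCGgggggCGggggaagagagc
Ppp1r14a (chr7:29289070-29289307, plus strand): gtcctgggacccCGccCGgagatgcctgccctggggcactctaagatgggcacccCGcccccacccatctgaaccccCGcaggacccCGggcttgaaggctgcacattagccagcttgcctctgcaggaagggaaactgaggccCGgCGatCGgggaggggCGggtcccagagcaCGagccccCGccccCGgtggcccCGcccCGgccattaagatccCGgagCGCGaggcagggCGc
The stretch of Ppp1r14c holds 1 CpG in 157 bases, that of Ppp1r14b 6 in 170 and that of Ppp1r14a 18 in 238. Over the full 250 bases before the RefSeq start, the counts were 5, 18 and 18 CpGs, beside a median of 6 over 32851 such windows. The GC box (GGGCGG on either strand, overlapping matches counted) occurred 0 times in the window of Ppp1r14c, 4 times in that of Ppp1r14b and 5 times in that of Ppp1r14a, and 32.7% of all windows held it. The E-box (CANNTG, the same on both strands) occurred 3, 0 and 1 times, and 66.2% of windows held it. The CCAAT box (CCAAT on either strand) occurred once in the window of Ppp1r14c and in neither of the others, with 33.9% of windows holding it. The counts are over the windows, so some matches for Ppp1r14c and Ppp1r14b lie outside the shorter stretches printed above. These are matches of letters and not measured sites.

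Ppp1r14c was the gene of the set whose KO and WT libraries stood apart. The gene (ENSMUSG00000040653) lies on chromosome 10 from 3366057 to 3464975 on the plus strand (GRCm38). It had 157, 108, 169, 108 and 83.8 normalized counts in KO1 to KO5, against 281, 335, 367, 404 and 249 in WT1 to WT5. The highest KO library, KO3, lay below the lowest WT library, WT5, so the groups did not overlap. The means were 125 ± 36.0 in KO tumours and 327 ± 62.8 in WT tumours (SD, n = 5 each), and the fitted log2 difference was -1.41 ± 0.23 (SE), a ratio of KO to WT of 0.377. The values rest on 96 to 120 reads in KO tumours and 225 to 558 in WT tumours. The exact Poisson interval (95%), which covers counting error only, reached up to 202 normalized counts in KO3 and down to 218 in WT5. KO5 was the lowest of all libraries and WT4 the highest, 4.82 times apart. The libraries did not overlap for 1 of the 7 genes, and this was so for 255 of 17975 tested genes, 1.42% (0.734% with KO the lower group). A fitted difference at or below that of Ppp1r14c was found in 2.03% of tested genes. limma passed 0 of the 7 after adjustment over all genes, where it passed 1 gene in all (0.00556%), and 1 of the 7 had an unadjusted p under 0.05, as 6.49% of all tested genes did. edgeR passed 0 of the 7 (0.00556% of all genes), and DESeq2 passed Ppp1r14c (0.673% of all genes, 0.529% with KO lower). Because Ppp1r14c was taken up for this contrast, nothing is read from these counts.

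**Figure D1:**
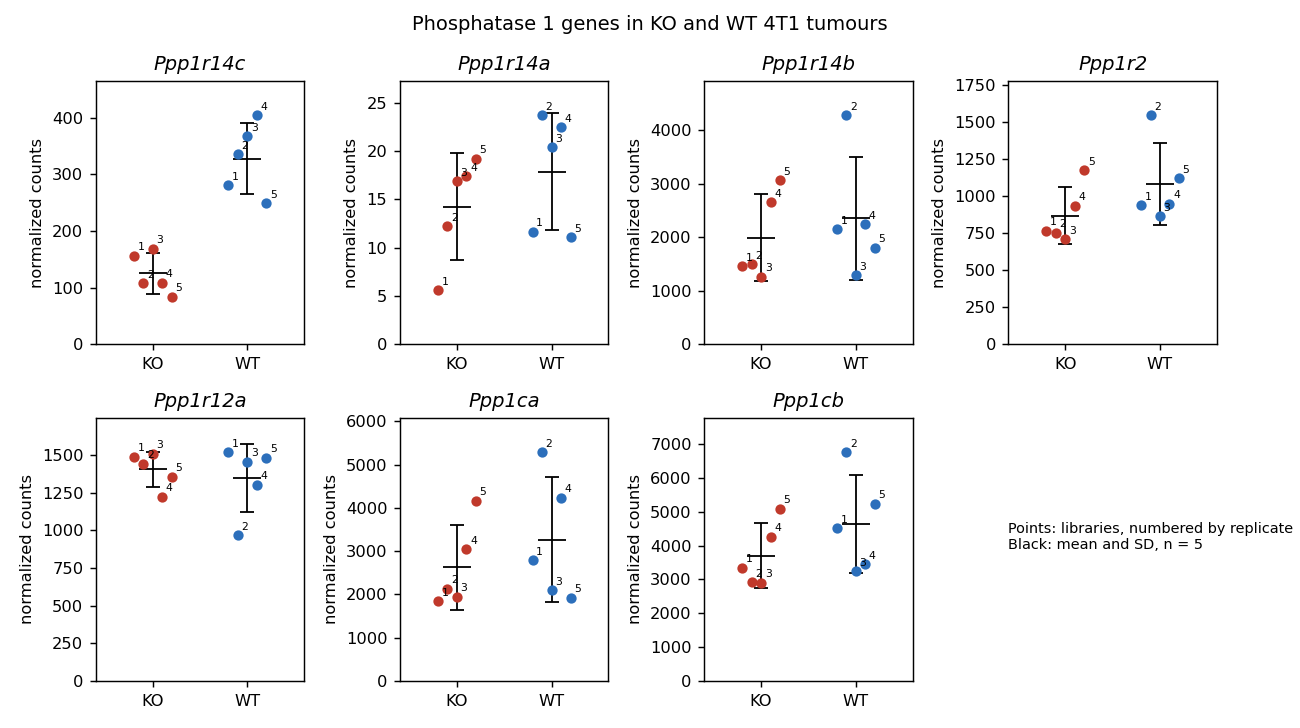
Normalized counts (linear axes from 0) of the 7 measured genes in the 5 KO and 5 WT libraries, with the mean and SD in black and the replicate number beside each point. For Ppp1r14c the KO libraries lie between 83.8 and 169 and the WT libraries between 249 and 404, while the groups overlap for each of the other 6 genes.

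Summed carcinoma cell markers were lower in the same KO libraries. As a share of their sum, Ppp1r14c overlapped between the groups, with a lower mean in KO tumours. The 10 carcinoma and epithelial markers summed to between 13361 and 18780 normalized counts in KO tumours. In WT tumours they summed to between 19698 and 32090, so the sums did not overlap. Taken singly, the libraries did not overlap for 1 of the 10, Krt14, beside 1.42% of all tested genes. All 10 had fitted log2 differences below 0 (median -0.95), beside 51% of all tested genes. limma passed 0 over all genes, with 9 lower at an unadjusted p under 0.05, edgeR passed 0 and DESeq2 1. Over all tested genes 6.49% had an unadjusted p under 0.05 in either direction and DESeq2 passed 0.673%. Ppp1r14c came to 1.07%, 0.807%, 1.11%, 0.577% and 0.527% of that sum in KO1 to KO5, against 1.03%, 1.69%, 1.25%, 1.26% and 1.27% in WT1 to WT5. KO1 and KO3 lay above WT1, so the groups overlapped, while WT2 to WT5 lay above every KO library. The means were 0.818 ± 0.269% in KO tumours and 1.30 ± 0.239% in WT tumours (SD, n = 5 each). Without Krt5 and Krt14, which were highest in WT3, the library with most keratinocyte RNA, the share was 0.834 ± 0.275% in KO tumours and 1.42 ± 0.276% in WT tumours and the groups again overlapped. Set against the markers one by one, the groups overlapped for each of the 9 markers that were above 0 in every library. The share was lower on average in KO for 7 of them and higher for 2, Krt14 and Esrp1. Against Epcam, an epithelial adhesion molecule, Ppp1r14c was 11.001 ± 5.01% in KO tumours and 11.9 ± 3.92% in WT tumours. Against Krt8, a keratin of simple epithelium, it was 2.94 ± 1.54% in KO tumours and 5.87 ± 1.53% in WT tumours. The markers differed in how far they fell, from a fitted log2 difference of -0.29 (Krt8) to -4.6 (Krt5). In these bulk tumours the number of carcinoma cells and the RNA per cell, of Ppp1r14c or of the markers, cannot be told apart. The shares were computed after the values had been seen.

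**Figure D2:**
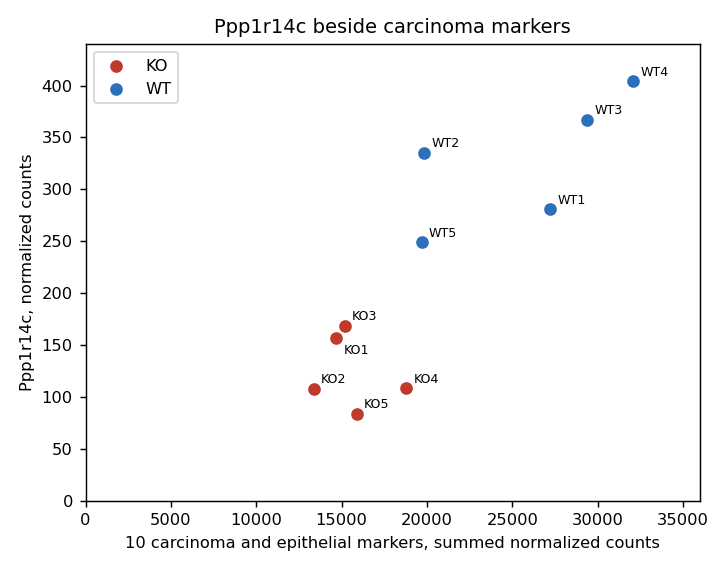
Ppp1r14c (normalized counts, vertical) against the summed normalized counts of 10 carcinoma and epithelial markers (horizontal) in each library. The 5 KO libraries lie at the lower left, at marker sums of at most 18780, and the 5 WT libraries at the upper right, at sums of at least 19698.

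The summed markers of each of the other cell types overlapped between the groups. Markers of smooth muscle, the tissue CPI-17 is best known from, summed to 2160 to 3643 normalized counts in KO tumours and 2110 to 10469 in WT tumours (8 genes, 7 with fitted differences below 0, none passing in limma, edgeR or DESeq2 and 0 at an unadjusted p under 0.05). The 8 keratinocyte markers all had fitted differences below 0 (8 at an unadjusted p under 0.05, 0 passing in limma and edgeR, 4 in DESeq2). Over all tested genes 51% lay below 0, 6.49% had an unadjusted p under 0.05 and DESeq2 passed 0.673%. The keratinocyte sums in WT1 and WT4 lay within the KO range. Without WT2, WT3 and WT5 the fitted difference of Ppp1r14c was -1.47 ± 0.33 (SE). That fit left WT1 and WT4 as the only WT libraries. Its sign could not turn, since every KO library lay below every WT library. Leukocyte markers summed to 5531 to 6642 in KO tumours and 4138 to 5941 in WT tumours (6 genes, all with fitted differences above 0, 1 of them at an unadjusted p under 0.05, none passing in limma, edgeR or DESeq2). Fibroblast sums were 21623 to 41871 in KO tumours and 27834 to 76511 in WT tumours. Endothelial sums were 1914 to 3117 in KO tumours and 1764 to 3068 in WT tumours. Skeletal muscle (6 genes), adipocyte (4) and nerve markers (3) had fitted differences below 0 throughout, none passing in limma, edgeR or DESeq2 (1 adipocyte marker at an unadjusted p under 0.05), and their ranges overlapped between the groups. The part of these cell types in the level of Ppp1r14c was not tested.

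At its locus, Ppp1r14c had 1 other gene with a row within 500000 bases, Plekhg1, which lies from 3740364 to 3967303. Plekhg1 had 169 ± 56.1 normalized counts in KO tumours and 183 ± 58.7 in WT tumours (SD, n = 5 each), a fitted log2 difference of -0.10 ± 0.30 (SE; limma adjusted p = 0.979). Its KO libraries ran from 104 to 233 and its WT libraries from 92.0 to 243, so the neighbour did not show the gap of Ppp1r14c. Of the exonic bases of Ppp1r14c, 765 are shared with the antisense lincRNA gene Gm26752, which has no row, and without a stated strand the reads of the pair cannot be told apart.

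The other CPI-17 family genes with a row did not separate the groups, and their levels lay far from that of Ppp1r14c. Ppp1r14b (PHI-1), the widely expressed relative, lies on chromosome 19 from 6974968 to 6977324. It had 1457, 1501, 1264, 2653 and 3069 normalized counts in KO1 to KO5, against 2148, 4283, 1288, 2242 and 1803 in WT1 to WT5. The ranges overlapped almost entirely, with the highest value in WT2 and the lowest in KO3, and the fitted log2 difference was -0.22 ± 0.33 (SE). Ppp1r14a, which encodes CPI-17 itself, lies on chromosome 7 from 29289308 to 29293801. It had 5.59, 12.2, 16.9, 17.4 and 19.2 normalized counts in KO1 to KO5, against 11.6, 23.7, 20.4, 22.4 and 11.1 in WT1 to WT5. KO1 was the lowest, on 4 reads with an exact Poisson interval of 1.52 to 14.3 normalized counts, which reaches into the range of both groups. The fitted log2 difference of Ppp1r14a was -0.34 ± 0.39 (SE) on 4 to 31 reads per library.

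Per kilobase of annotated exon, the scale on which genes can be compared, the inhibitors spanned a wide range. Ppp1r14b was the most abundant of the 7 genes in both groups, at 1303 ± 534 normalized counts per kb in KO tumours and 1542 ± 748 in WT tumours (SD, n = 5 each). Ppp1r14c was at 47.8 ± 13.7 per kb in KO tumours and 125 ± 24.0 in WT tumours. Ppp1r14a was the lowest, at 10.4 ± 4.01 per kb in KO tumours and 13.1 ± 4.42 in WT tumours. The level of Ppp1r14c per kb thus came to 4.44 ± 2.59% of that of Ppp1r14b in KO tumours and 9.47 ± 4.52% in WT tumours, and the groups overlapped on this share, with KO3 at 7.78% and WT2, where Ppp1r14b was highest, at 4.56%. The next genes in order were Ppp1ca, at 1042 ± 390 per kb in KO tumours and 1296 ± 576 in WT tumours, and Ppp1cb, at 340 ± 87.3 per kb in KO tumours and 425 ± 132 in WT tumours. Then came Ppp1r2, at 195 ± 43.4 per kb in KO tumours and 244 ± 61.9 in WT tumours, and Ppp1r12a, at 175 ± 14.5 per kb in KO tumours and 168 ± 28.2 in WT tumours. The ranges of Ppp1r14b and Ppp1ca overlapped in both groups. Those of Ppp1r2 and Ppp1r12a overlapped in KO. In WT the ranges of Ppp1cb and Ppp1r2 overlapped, as did those of Ppp1r12a and Ppp1r14c, at 121 to 190 and 95.2 to 154 per kb. In KO, Ppp1r12a (153 to 188 per kb) and Ppp1r14c (32.0 to 64.5 per kb) did not overlap. Exon lengths are those of all annotated isoforms joined, 10913 bases for Ppp1cb, so a gene with long, little-used exons is understated on this scale.

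**Figure D3:**
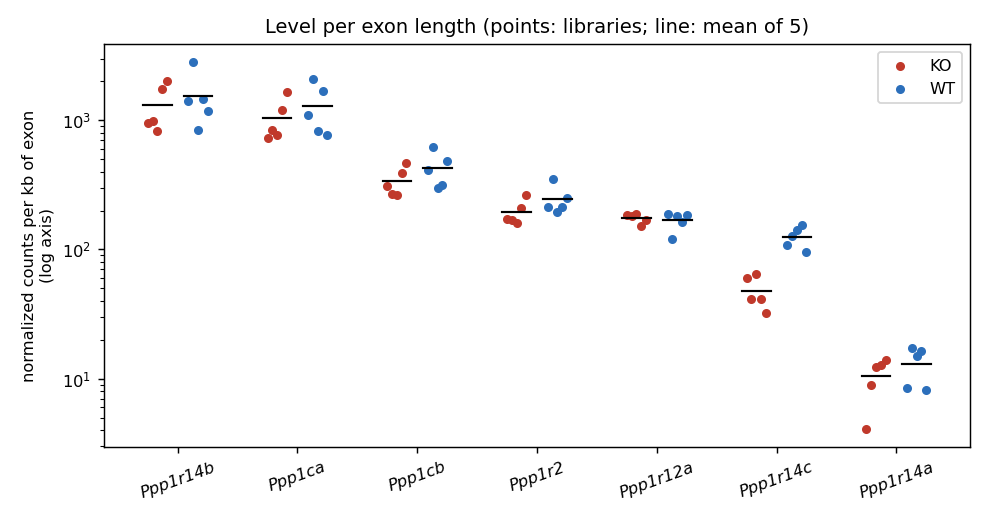
Normalized counts per kilobase of annotated exon (log axis) for the 7 genes, KO left of WT, with 1 point per library and a line at each mean of 5. Ppp1r14c is the gene whose KO and WT points do not overlap, at 32.0 to 64.5 per kb in KO and 95.2 to 154 per kb in WT.

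Ppp1r2, the gene of inhibitor-2, a heat-stable inhibitor that also acts as a chaperone of the PP1 catalytic subunit, is encoded on the minus strand of chromosome 16 (31251537 to 31275277). It had 765, 752, 709, 935 and 1176 normalized counts in KO1 to KO5, against 939, 1545, 862, 947 and 1119 in WT1 to WT5. WT2 was the highest and KO3 the lowest, the groups overlapped, and the fitted log2 difference was -0.31 ± 0.20 (SE). Among the catalytic subunits, Ppp1ca (chromosome 19, 4192065 to 4195420) had 1843, 2135, 1949, 3041 and 4165 normalized counts in KO1 to KO5, against 2788, 5289, 2093, 4235 and 1924 in WT1 to WT5. Its fitted log2 difference was -0.27 ± 0.31 (SE), and KO4 and KO5 lay above WT1, WT3 and WT5. Ppp1cb, the catalytic subunit of the myosin phosphatase (chromosome 5, 32458843 to 32517433), had 3353, 2923, 2899, 4259 and 5098 normalized counts in KO1 to KO5, against 4520, 6768, 3238, 3452 and 5236 in WT1 to WT5. Its fitted log2 difference was -0.31 ± 0.24 (SE), with KO5 above WT1, WT3 and WT4. Exonic bases are shared with other genes for Ppp1ca (225 with Rad9a), Ppp1r14b (22 with Plcb3) and Ppp1cb (1908 with Gm43312, at 23.4 normalized counts on average in KO tumours and 33.2 in WT tumours).

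Ppp1r12a, the MYPT1 gene (chromosome 10, 108162193 to 108284475), was the steadiest of the 7. It had 1489, 1444, 1510, 1225 and 1358 normalized counts in KO1 to KO5, against 1521, 970, 1456, 1304 and 1482 in WT1 to WT5. All but WT2 lay between 1225 and 1521, and the fitted log2 difference was 0.08 ± 0.16 (SE). Its highest library was 1.57 times its lowest, beside a median of 2.60 times over all tested genes (each value plus 1), and 94.1% of tested genes had a larger ratio.

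Across libraries, Ppp1ca, Ppp1cb, Ppp1r2 and Ppp1r14b were high in the same 2 tumours, WT2 and KO5, and Ppp1r14c was lowest of all in the second of them. WT2 was the highest library for 5 of the 7 genes, these and Ppp1r14a, and the lowest for Ppp1r12a. It stood at 1.99 times the WT median for Ppp1r14b, 1.90 times for Ppp1ca, 1.63 times for Ppp1r2 and 1.497 times for Ppp1cb. KO5 likewise stood at 2.04, 1.95, 1.54 and 1.52 times the KO median for Ppp1r14b, Ppp1ca, Ppp1r2 and Ppp1cb, and for Ppp1r14c it stood at 0.774 times the KO median, the lowest library of all. Among all libraries KO5 ranked 2 for Ppp1r14b and Ppp1r2. It ranked 3 for Ppp1ca, below WT4 as well as WT2, and 3 for Ppp1cb, below WT5 as well as WT2. The pattern was not particular to these genes. Outside the set, Ppp1cc, Ppp1r8 and Ppp1r11 also had WT2 and KO5 as their highest libraries, while Ppp1r12b was lowest in KO5. How many of all tested genes share the pattern was not counted. A ratio of highest to lowest library above that of Ppp1r14b was found in 31.2% of tested genes (each value plus 1). The ratio of Ppp1r2 to Ppp1cb varied little: Ppp1r2 was 58.0 ± 3.66% of Ppp1cb per kb in KO tumours and 58.5 ± 7.50% in WT tumours (SD, n = 5 each). Ppp1r14b was 124 ± 14.1% of Ppp1ca per kb in KO tumours and 121 ± 26.7% in WT tumours. WT2 also held the most skeletal muscle RNA, 96295 normalized counts over 6 markers against 88.4 to 9567 in the other WT libraries, and its part in these levels was not tested. KO5 held 3152, within the KO range of 208 to 4716.

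**Figure D4:**
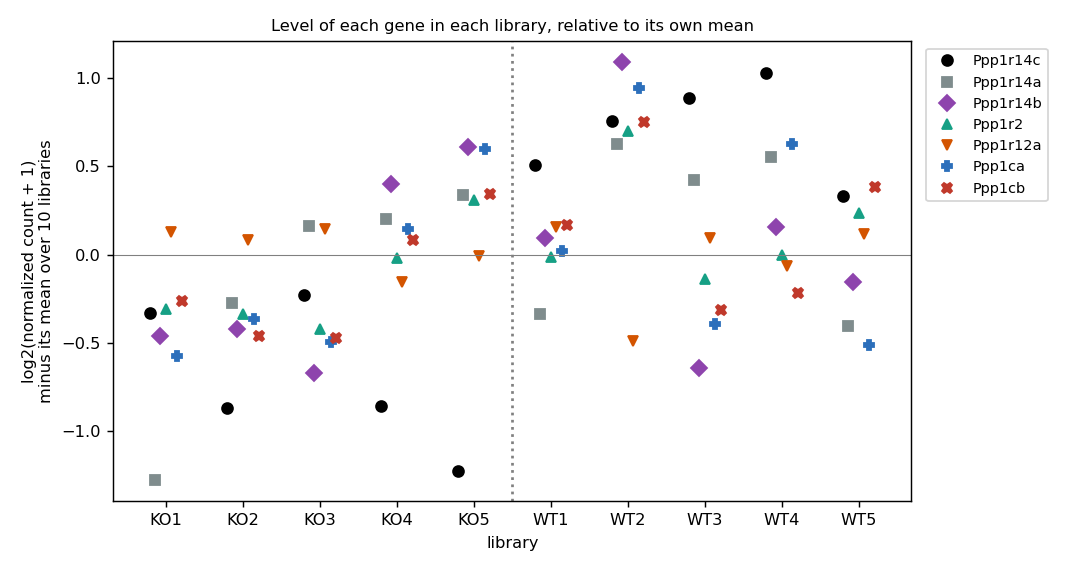
Level of each gene in each library on the log2 scale (log2 of the normalized count plus 1), minus its mean over the 10 libraries; points of 1 library are set slightly apart. Ppp1r14b, Ppp1ca, Ppp1r2 and Ppp1cb are high together in WT2 and KO5, while Ppp1r14c is above its mean in all 5 WT libraries and below it in all 5 KO libraries.

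The genes whose levels followed Ppp1r14c most closely were not PP1 genes. Over the 10 libraries, the log2 levels with the highest Pearson r to Ppp1r14c belonged to Dffb, the nuclease of apoptotic DNA fragmentation (r = 0.959), Samd10 (0.956), Sertad4 (0.951), Fgf11, an intracellular FGF homologous factor (0.947), and Echdc3, an enoyl-CoA hydratase family gene (0.930). Their Spearman rank correlation ran from 0.891 in Fgf11 to 0.988 in Samd10, and without the 2 libraries farthest from the median r ran from 0.874 to 0.952. The step between the groups, which the choice of Ppp1r14c fixed, enters this likeness. Samd10, for example, had 131, 86.3, 160, 124 and 101 normalized counts in KO1 to KO5 and 200, 218, 229, 264 and 166 in WT1 to WT5. After the group means were taken out, genes among the 5 most like it were Hps4 (r = 0.981), a gene of lysosome-related organelles, Trak1 (0.980), a motor adaptor of mitochondria, Mpp3 (0.959), a membrane scaffold, and Rps6ka2 (0.955), a ribosomal S6 kinase. These genes were picked as the highest of all tested genes and share the libraries' depth, so they are given as a description with no p-value. Of the other genes of the set, none was close: over the 10 libraries r ran from -0.17 (Ppp1r12a) to 0.27 (Ppp1r14a), and within the groups from -0.62 (Ppp1cb) to 0.041 (Ppp1r12a). For the 10 carcinoma markers r over the libraries ran from 0.232 (Krt8) to 0.840 (Epcam). Within the groups it ran from -0.357 (Krt8) to 0.730 (Grhl2, an epithelial transcription factor), with Krt18 at -0.333 and Krt14 at 0.0250, so the markers did not share 1 pattern with Ppp1r14c.

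Beyond the set, 59 of 64 listed genes of the PP1 pathway were tested, and none passed in either direction (limma 0 in each direction over all genes, edgeR 0, DESeq2 0). At an unadjusted p under 0.05, 4 lay lower in KO tumours (Myh14, Phactr2, Prkaca and Ppp1r26) and 0 lay higher. Counted in either direction, this share of the 59 was close to the 6.49% of all tested genes. Of 17881 tested genes with a symbol, 657 lay lower and 506 lay higher at that threshold. Their median log2 difference was -0.08, with 41 below 0 and 18 above, beside a median of -0.01 and 51.0% below 0 over all tested genes. The libraries did not overlap for 1 of the 59, Phactr2, beside 1.42% of all tested genes. The third catalytic subunit gene, Ppp1cc, had 1312 ± 326 normalized counts in KO tumours and 1341 ± 300 in WT tumours (SD, n = 5 each; log2 -0.04 ± 0.21 SE). Of 3 further inhibitor genes tested, Ppp1r11 was at 0.13, Ppp1r8, the nuclear inhibitor NIPP1, at -0.09 and Ppp1r7, which encodes Sds22, at -0.07 on the log2 scale.

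Of the targeting subunits of the myosin phosphatase family, 4 were tested besides Ppp1r12a, with 2 above and 2 below 0. Ppp1r12c (MBS85) had 485 ± 42.1 normalized counts in KO tumours and 401 ± 124 in WT tumours (log2 0.32 ± 0.20 SE). Ppp1r12b (MYPT2) had 1088 ± 296 in KO tumours and 1425 ± 454 in WT tumours (log2 -0.38 ± 0.24 SE), and the TIMAP gene Ppp1r16b, known from endothelium, was at 0.34 ± 0.26. Of 18 other targeting subunits 13 were below 0, with a median of -0.16 and 2 at an unadjusted p under 0.05. Phactr2, an actin-binding PP1 partner, had 192 ± 23.1 normalized counts in KO tumours and 251 ± 22.5 in WT tumours (SD, n = 5 each; log2 -0.39 ± 0.16 SE, limma adjusted p = 0.727). Its KO libraries ran from 157 to 209.5 and its WT libraries from 212.65 to 267. Ppp1r26 was at -0.50 ± 0.23 (limma adjusted p = 0.757). Ppp1r3c, a glycogen targeting subunit, was at -1.54 ± 0.93 (limma adjusted p = 0.866) with 763 normalized counts in WT2, the library with most muscle RNA, and at most 85.3 elsewhere; the part of muscle was not tested.

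The kinases that act on these inhibitors, 18 genes, had a median log2 difference of -0.06, with 13 below 0 and 1 at an unadjusted p under 0.05. That was Prkaca, a catalytic subunit of protein kinase A, at 530 ± 95.04 normalized counts in KO tumours and 833 ± 358 in WT tumours (log2 -0.58 ± 0.25 SE, limma adjusted p = 0.750). The protein kinase C genes Prkcd and Prkcq, whose products belong to the family that activates CPI-17 proteins, were at 0.28 and -0.55, neither passing (limma adjusted p = 0.891 and 0.879). Of 11 genes of nonmuscle myosin and its regulators 6 were below 0, with a median of -0.07. Myh14, the nonmuscle myosin heavy chain of epithelia, had 35.0, 26.3, 90.0, 49.1 and 40.2 normalized counts in KO1 to KO5, against 108, 56.5, 217, 285 and 51.0 in WT1 to WT5. KO3 lay above WT2 and WT5, so the groups overlapped, and the difference of -1.36 ± 0.48 (SE) did not pass (limma adjusted p = 0.674). Myl6, a myosin light chain, was at 0.42 ± 0.33 and Rhob, a small GTPase, at 0.25 ± 0.20. The ERM proteins and merlin, actin linkers at the membrane that PP1 complexes dephosphorylate, were below 0 in 4 of 4 with none at an unadjusted p under 0.05: Rdx was at -0.37 ± 0.17, Ezr at -0.35 ± 0.22 and Nf2 at -0.34 ± 0.19 (limma adjusted p = 0.775, 0.874 and 0.826).

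**Figure D5:**
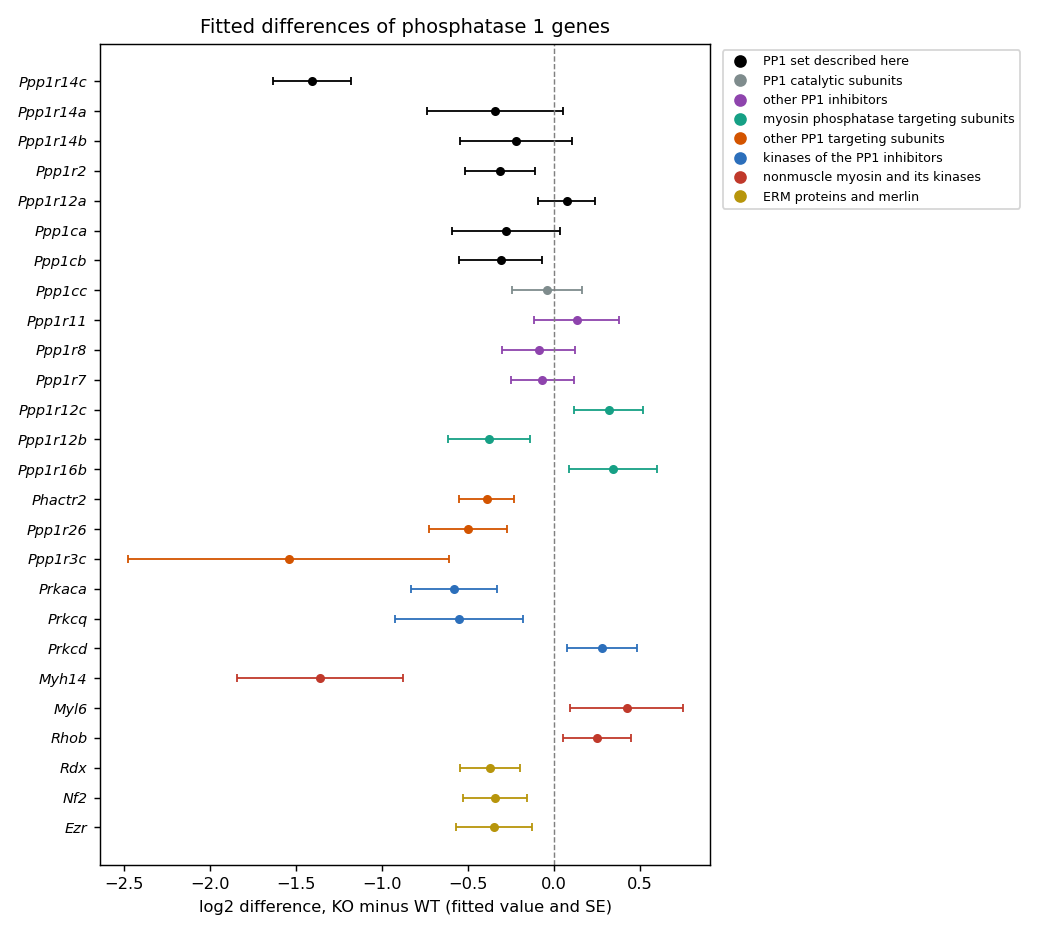
Fitted log2 differences, KO minus WT, with their SE for the 7 measured genes of the set (black) and the pathway genes with the smallest p of each list (colours; up to 3 a list). Ppp1r14c, at -1.41, lies farthest from 0 of the black points, and the colour points with differences below -1, Ppp1r3c and Myh14, have SEs of 0.93 and 0.48.

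Within the library prefixes the sign of the Ppp1r14c difference was fixed, since every KO library lay below every WT library, and its size is given as a description. It was -2.02 among the libraries prefixed RESUB, where KO5 is the only KO library, and -0.91 among the others, where WT5 is the only WT library. The other genes of the set varied in sign. Among the RESUB libraries Ppp1r14b was at 0.43, Ppp1ca at 0.30, Ppp1cb at 0.25 and Ppp1r2 at 0.17. Among the others Ppp1r14b was at -0.13, Ppp1ca at 0.19, Ppp1cb at -0.66 and Ppp1r2 at -0.51. Over all libraries the 4 were at -0.22, -0.27, -0.31 and -0.31. Ppp1r14a was at 0.02 among the RESUB libraries and at 0.11 among the others. Ppp1r12a was at 0.07 among the RESUB libraries and at -0.07 among the others.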

How the data were processed

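The authors deposited a table of normalized read counts, gene-level signal values for 18047 Ensembl genes in 10 libraries. Every value is a whole multiple of the value of 1 read (100% of values within 0.01 of a read), so whole reads were recovered. The submitters' processing notes list bcl2fastq 2.17 and GRCm38. Primers carried unique molecular identifiers, per the labels' protocols; whether these were used in counting, the strand setting, aligner and counter are not given in the sources used here. Symbols came from GENCODE M21, which named 17953 of the IDs.

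The filter kept 17975 genes averaging 10 normalized counts or more and left out 72. Values were log2-transformed after adding 1, which shrinks differences of low genes, and tested by limma 3.58.1 (R 4.3.3, trend on intensity), calling genes at a Benjamini-Hochberg adjusted p of 0.05. edgeR 4.0.16 (quasi-likelihood) and DESeq2 1.42.0 on the recovered reads were alternatives, and the limma step was tested on simulated data. Alternatives changed the pseudocount, filter, scaling, test, covariates and libraries.

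The genes of the set and the lists were chosen with earlier results of these data known. Named genes are the set, the 3 genes of each pathway list with the smallest p, the 5 most like Ppp1r14c by each measure, and the most abundant of each marker list where a list is described; genes with clone-style names were left out of the likeness ranking. Other markers named were chosen after their values were seen. Not reported here are 1 of the 5 genes most like Ppp1r14c within the groups and a planned label check. Plots used matplotlib 3.10.9 (Python 3.11.15).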

Additional observations from a re-analysis of the deposited data

Results flagged for a closer look

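None of the 7 genes of the set had a library far from the others of its group by Dixon's test, at the critical value of 0.71 for 5 libraries. Among the pathway genes named, 4 of the 52 groups examined, counting those of the set, had such a library, where chance gives about 1 in 20. Phactr2 was lowest in WT3, at 212.65 normalized counts. Ppp1r26 was highest in WT4, at 328. Ppp1r3c was highest in WT2, at 763. Prkcq was highest in WT2, at 196.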

How the results depend on the processing

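The sign of Ppp1r14c could not turn when libraries were left out, since its groups do not overlap. Its log2 difference moved by more than the spread between libraries within the RESUB libraries (-2.02) and within the libraries without the prefix (-0.91). In each of these subsets 1 group holds only 1 library. The difference was -1.46 with the prefix as a term, and ran from -1.53 to -1.28 with 1 library left out. With WT2 and WT5 averaged it was -1.45 ± 0.23 (SE). The number of genes passing over all genes, 1, was 121 with DESeq2, 52 within the libraries without the prefix, 0 within the RESUB libraries, 0 with WT2 and WT5 averaged, 0 without WT2, WT3 and WT5, and 0 to 3 with 1 library left out. The pathway genes outside the set stayed at 0 passing under all 24, with medians from -0.22 to 0.021. Signs in the set turned for all of the other 6 genes. Within the RESUB libraries Ppp1r14b (0.43), Ppp1r2 (0.17), Ppp1ca (0.30), Ppp1cb (0.25) and Ppp1r14a (0.0231) were above 0. With the prefix as a term Ppp1ca (0.25), Ppp1r14b (0.15) and Ppp1r14a (0.0646) were above 0. Within the libraries without the prefix Ppp1ca (0.19) and Ppp1r14a (0.11) were above 0 and Ppp1r12a (-0.0695) below. Without WT2, Ppp1r14b was at 0.0276 and Ppp1r12a at -0.0374, and without WT2, WT3 and WT5 Ppp1r12a was at -0.00704. Signs of pathway genes turned as follows. With the prefix as a term Ppp1cc was at 0.21 and Ppp1r8 at 0.16. Within the RESUB libraries Ppp1cc was at 0.43, Ppp1r8 at 0.25, Ppp1r7 at 0.12, Prkcd at -0.0753 and Rdx at 0.0598. Within the others Ppp1r8 was at 0.0816, without WT2, WT3 and WT5 Prkcq was at 0.0345, and with GC and length trends removed Ppp1cc was at 0.00484 and Ppp1r7 at 0.0256. With 1 library left out Ppp1cc ran from -0.16 to 0.0772, Ppp1r8 from -0.19 to 0.0361 and Ppp1r7 from -0.18 to 0.0452. The cause was not tested. With the replicate block, Ppp1r14c was at -1.41 and 1 gene passed. Same-numbered libraries share only a number: the correlation of their deviations ran from -0.229 to 0.518, and 1 of 5 KO libraries correlated best with its own number. Ppp1r14a rests on 4 to 31 reads per library; how far counting error sets its spread was not tested.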
